A study of Homo sapiens with 2 samples.

Results

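Apolipoprotein D, 3 further lipocalins and 4 fatty-acid binding proteins were followed in a human cell line made to overexpress melanotransferrin. The members were the 8 genes APOD, LCN2, PTGDS, RBP4, FABP3, FABP5, FABP6 and FABP7. Every probe set annotated to 1 of them alone was taken, which gave 16 of the 41097 single-gene probe sets and 8 of the 19775 genes on the array. The list takes part of each family, by gene name, and was drawn up with earlier results of these data known. 1 array carried RNA from clone 4 of SK-N-MC cells stably transfected with the human melanotransferrin cDNA in the pCMV-Script vector, and 1 array carried RNA from clone 1 of the same cells with that vector empty. Both lines had therefore been through transfection and selection, and each group is 1 clone, so clone and transgene cannot be told apart. SK-N-MC, called neuroepithelioma cells by the submitters, is now counted among the Ewing tumour family. The comparison asks which transcripts differ when melanotransferrin, a membrane-bound relative of transferrin, is made in excess. APOD is one of the genes linked to melanotransferrin in earlier work of the submitters' group. That work may draw on these same arrays, so the APOD value is a description and not independent evidence.

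Lipocalins are small proteins, mostly secreted, that fold into a barrel around a fat-soluble ligand. Fatty-acid binding proteins have a related barrel but stay inside the cell, where they carry fatty acids, bile acids or retinoids between membranes, enzymes and nuclear receptors. In nervous tissue APOD and FABP7 are known from glia, PTGDS from meninges and glia, and FABP5 from neurons and glia.

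The data are probe set signals, which are linear intensities in arbitrary units. With 1 array per group there was no replicate spread and no test, and every value below is a single measurement. A signal of 208 served as a floor, the 90th percentile of probe sets for olfactory receptor, bitter taste receptor and hair keratin-associated genes that these cells should not express. A gene below it on both arrays was not measured, and a gene below it on 1 array has only a bound, written "at least". Genes were counted at a ratio of 2 or more on their brightest probe set. By this rule 153 of the 12663 measured genes (1.21%) were higher in the clone and 240 (1.9%) were lower. Background probe sets had a median signal of 43 on the clone array and 67.4 on the control array, and 442 genes exceeded the floor in the clone alone, against 1426 in the control alone. The part of this difference in background in the results below was not tested. The arrays had been scaled to the same mean. Spikes added at hybridisation had a median ratio of 0.706, clone over control, and poly-A spikes one of 1.53, so directions hold relative to all genes. As a check of the labels, the melanotransferrin probe set annotated to the transcript of the insert read 4449.4 in the clone and 18.4 in the vector control, at least 21.4-fold higher, while the other 3 probe sets of this gene lay at or near the floor or below it.

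The Ewing tumour identity of the cells was visible in both arrays. All 9 analysed Ewing markers lay above the floor on both, with CD99 at 32238.8 in the clone and 31464.8 in the control and NKX2-2 at 12438.4 and 11549.7. None of 9 hepatocyte markers exceeded it on either array. Also under it on both stayed 5 of 6 adipocyte, 6 of 7 leukocyte, 4 of 6 epithelial, 3 of 6 glial and 2 of 4 melanocyte markers. Some exceptions were bright. PTPRC, a leukocyte marker, read 13942.6 in the clone and 15581.1 in the control, and KRT18, an epithelial one, 10363 and 9759.9. KRT8 of epithelium read 245.6 in the clone and 509.9 in the control, and CIDEC of adipocytes 265.7 and 319.8. Of the melanocyte markers, MITF read 506.7 in the clone and 318.4 in the control, and PMEL 109.8 and 217.6. The summed signal of the glial markers was 1172.6 in the clone and 1537.9 in the control, with SOX10 below the floor in both. S100B, the glial marker above it on both arrays, read 756.4 in the clone and 630.2 in the control. MBP and ERBB3 exceeded it in the control alone, at 190.1 and 51.4 in the clone against 421.6 and 279.5 in the control. Fibroblast markers were mostly present, 7 of 8 on both arrays, with sums of 48743.7 in the clone and 50326.5 in the control.

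Of the 8 members, 4 were measured and 4 (50%) stayed under the floor on both arrays, beside 36.0% of all genes. APOD and FABP5 exceeded the floor on both arrays and read lower in the clone at the deposited scaling, FABP5 turning to a log2 ratio of 0.39 when centred on hybridisation spikes. PTGDS and FABP6 exceeded it in the control alone, which fixes the sign of their ratios, so these give a bound and no independent direction. PTGDS alone was at least 2-fold apart. That is 1 of 4, beside 3.1% of all measured genes in either direction. With so few members the count is given as it stands. Over the 16 probe sets, 2 exceeded the floor on both arrays, 3 in the control alone, 0 in the clone alone and 11 on neither. Of all single-gene probe sets, 41.6% exceeded it on neither array. Of the 11 member probe sets, 5 read lower and 6 higher in the clone. Among all single-gene probe sets under the floor on both arrays, 61.7% read lower in the clone.

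**Figure D1:**
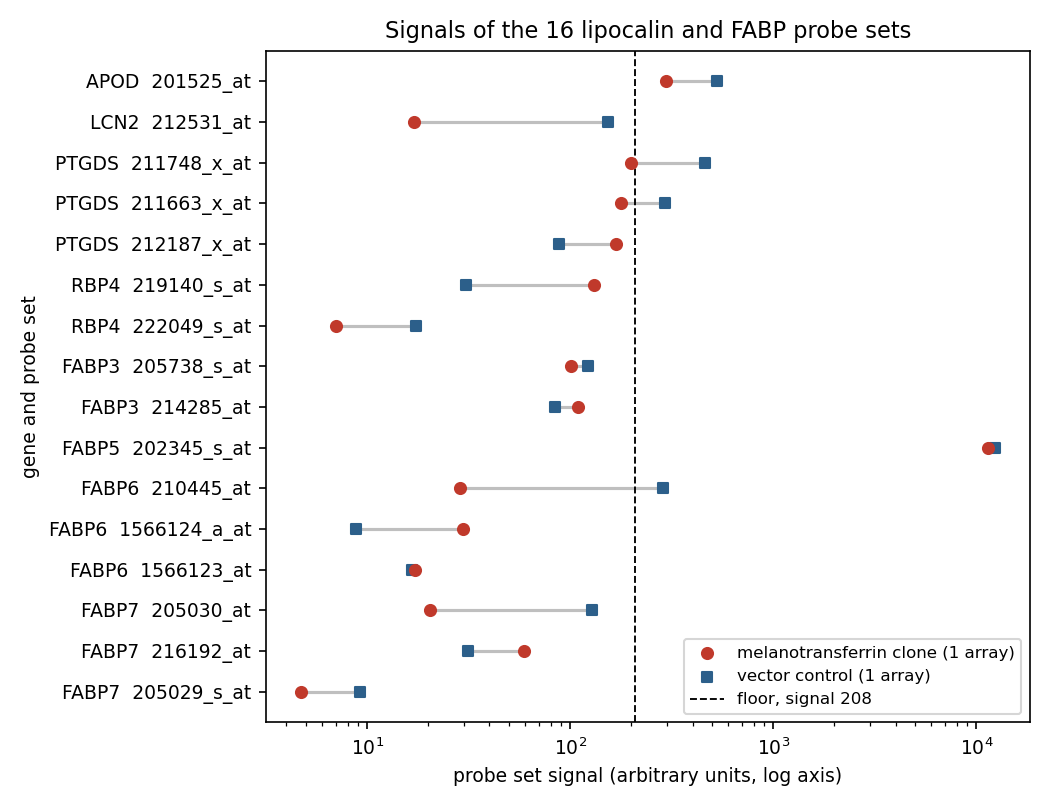
Signal of each of the 16 probe sets on a log axis in the melanotransferrin clone (red circles) and the vector control (blue squares), 1 array each, with the floor of 208 as a dashed line. APOD and FABP5 lie above the floor on both arrays, 2 PTGDS probe sets and 1 FABP6 probe set cross it in the control alone, and the other 11 probe sets stay below it.

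APOD, a secreted lipocalin that binds arachidonic acid and progesterone and is induced by stress in neural tissue, had 1 probe set (201525_at, annotated to NM_001647). It read 295.6 in the clone and 528.8 in the vector control. The clone was thus lower by 1.79-fold, a log2 ratio of -0.84, and both arrays were above the floor. Among genes with several probe sets clear of the floor, the probe sets of a gene differed in log2 ratio by a pooled SD of 0.40 where the dimmest had a mean signal under 500. The APOD difference was larger than this spread, which covers disagreement between probe sets and not variation between cultures or clones. The spread also takes in the brighter probe sets of those genes. No second APOD probe set was analysed. Dim genes scatter widely here. Among genes with both signals above the floor, the 1000 closest to APOD in mean signal had means of 330.6 to 513.7. Of these, the median log2 ratio was -0.082, and 10.6% had one as low as that of APOD or lower. Over all 10795 genes with both signals above the floor, the share was 2.32%. Both shares leave out genes above the floor on 1 array alone. Genes of this mean signal above it in the control alone all lie lower than APOD by the floor rule.

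PTGDS, the lipocalin-type prostaglandin D synthase, is both an enzyme that makes prostaglandin D2 and a carrier of retinoids. Its brightest probe set (211748_x_at) read 198.3 in the clone and 459.8 in the control, so the clone was at least 2.21-fold lower. The clone signal was only just under the floor. The second probe set (211663_x_at) read 177.7 in the clone and 291.2 in the control, a bound of -0.49 on the log2 scale. The third (212187_x_at) went the other way below the floor, at 168.2 in the clone and 87.8 in the control. The 3 probe sets thus disagreed on the control array, with a spread of 87.8 to 459.8, and lay close together on the clone array. All 3 carry the suffix for sequence shared with other transcripts, and what else they read was not tested. Of the 1426 genes that exceeded the floor in the control alone, 8.06% were at least 2-fold lower by the same rule. The median of the 2 bounds, -0.81 on the log2 scale, did not reach 2-fold, and neither did the ratio centred on hybridisation spikes, at -0.71. Without probe sets of shared sequence PTGDS had no value.

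LCN2, which sequesters bacterial iron-carrying siderophores and is a marker of neutrophils and inflamed epithelium, was not measured. Its probe set (212531_at) read 17 in the clone and 154 in the control, both below the floor. RBP4, the serum carrier of retinol, was not measured either: its probe sets read 130.3 and 7 in the clone, against 30.6 and 17.3 in the control. The larger RBP4 signal was higher in the clone and the smaller one lower, and all were in the background range.

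FABP5, the epidermal fatty-acid binding protein, which delivers ligand to PPAR-delta, was the one member far above the floor on both arrays. Its probe set (202345_s_at) read 11402.1 in the clone and 12357.4 in the control, a log2 ratio of -0.12. This is smaller than the pooled SD of 0.21 between probe sets of genes whose dimmest probe set exceeded a mean signal of 2000. A ratio this low or lower was found in 24.4% of the 1000 genes closest in signal among those above the floor on both arrays. RefSeq names 15 pseudogene copies of FABP5, and the suffix of this probe set marks shared sequence. The share of the signal that belongs to copies was not tested.

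FABP6, the ileal bile acid binding protein, had 3 probe sets. The first (210445_at) read 28.7 in the clone and 286.6 in the control, a bound of -0.46 on the log2 scale, since the clone signal is in the background. The other 2 stayed in the background, at 17.1 and 29.7 in the clone against 16.7 and 8.8 in the control. The FABP6 value therefore rests on 1 dim signal on the control array.

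FABP3, the heart and muscle form, read 101.2 and 108.8 on its 2 probe sets in the clone, against 122.6 and 84.5 in the control. FABP7, the brain form known from radial glia, read 20.4, 59.2 and 4.7 in the clone, against 128.2, 31.3 and 9.2 in the control. Neither gene was measured, and their probe sets moved in both directions between the arrays.

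**Figure D2:**
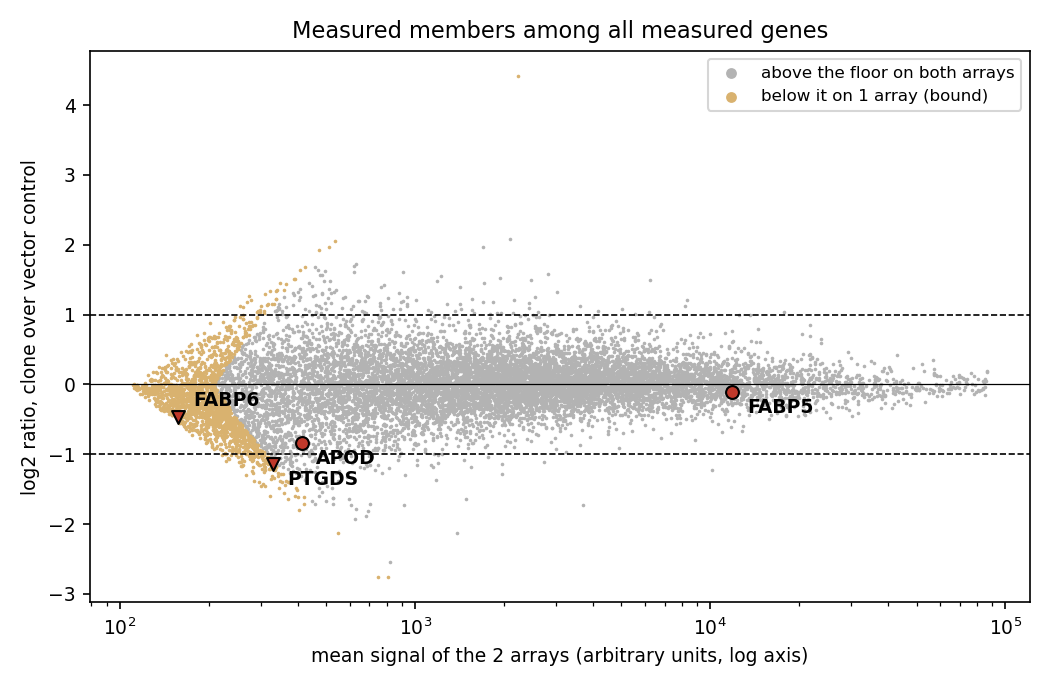
Log2 ratio of clone over vector control against mean signal (log axis) for the 12663 measured genes, grey where both arrays were above the floor and ochre where 1 was below it and the ratio is a bound. The 4 measured members are red, triangles for bounds; FABP5 at -0.12 lies in the narrow bright part of the cloud and APOD at -0.84 in the wide dim part, above the dashed 2-fold line that PTGDS passes.

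The position of the members in the genome was then compared with the values of the genes beside them, in the order of the RefSeq table (assembly GRCh38.p14). LCN2 and PTGDS both lie on chromosome 9, whose 504 measured genes had a median log2 ratio of 0.44, with 83.1% of them higher in the clone. All 6 of the nearest measured genes around LCN2 were higher in the clone, with log2 ratios of 0.20 to 0.91. They included PTGES2, a prostaglandin E synthase, at 2247.8 in the clone and 1379.3 in the control. Around PTGDS 5 of 6 neighbours were higher, with PHPT1, a phosphohistidine phosphatase, at 0.65 and PAXX, a DNA repair factor, at -0.067 as the extremes. PTGDS had a bound of -1.14, whose sign is fixed by its passing the floor in the control alone, and its probe set 212187_x_at read higher in the clone. On the whole chromosome 4 other measured genes were as low or lower. The neighbour values were not tested against those of PTGDS.

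APOD and melanotransferrin are both on chromosome 3, with 24 protein-coding genes between them. The chromosome as a whole had a median log2 ratio of -0.027 over 671 measured genes. Of the 6 measured genes nearest to APOD, 5 were lower in the clone, beside 52.8% of all measured genes. Among the 5, MUC4 read 106.4 in the clone and 301.7 in the control, a bound whose sign is fixed by the floor. PPP1R2, a phosphatase inhibitor, stood at -0.44, TNK2, a tyrosine kinase, at -0.64, and TFRC, the transferrin receptor, at -0.27, while XXYLT1 was higher with a bound of 0.56. None of the 6 reached 2-fold, and their median was -0.35. Around the other 5 members the medians of the 6 neighbours ran from -0.22 for FABP3 to 0.20 for FABP7. Of all 48 neighbours 1 was at least 2-fold apart, beside 3.1% of all measured genes. It was PKIB, a protein kinase inhibitor next to FABP7, which read 530.8 in the clone and 241.7 in the control.

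**Figure D3:**
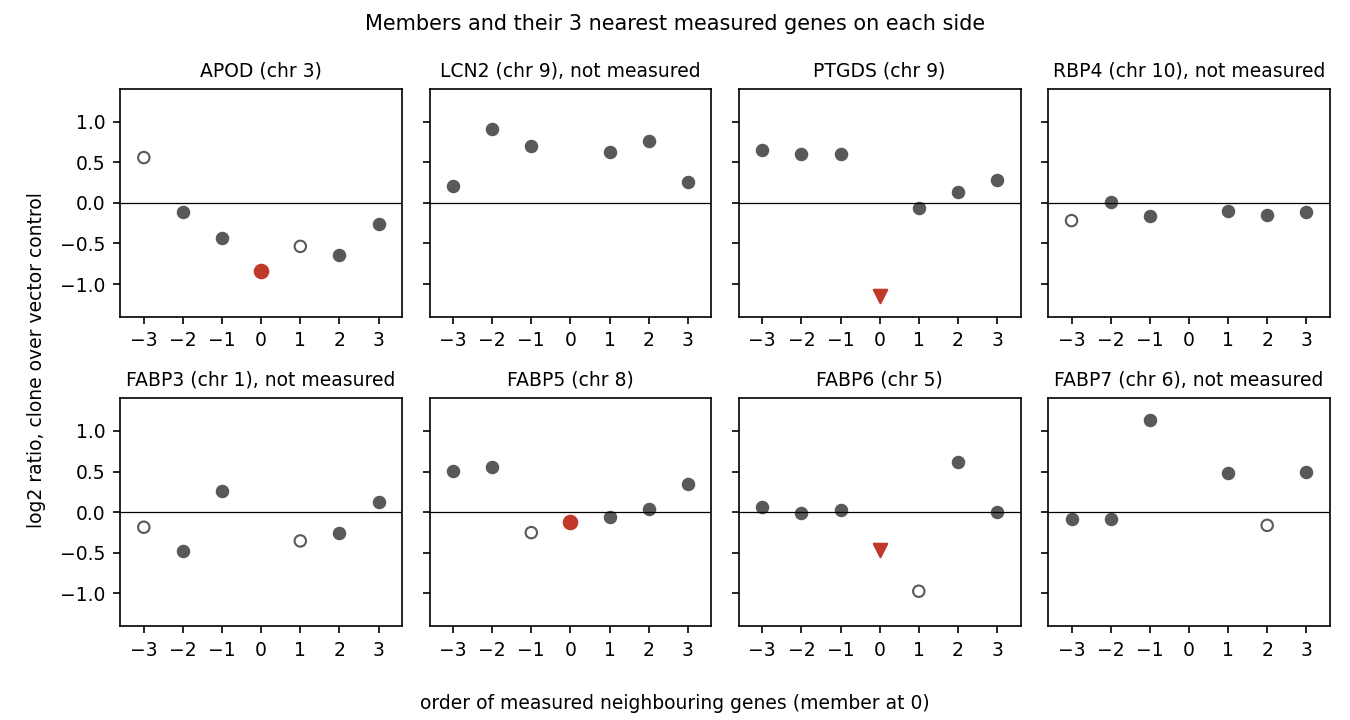
Log2 ratio of clone over vector control for the 3 nearest measured genes on each side of each member (grey, open where the ratio is a bound), with the member in red at position 0 where it was measured and triangles for bounds. The 6 neighbours of LCN2 all lie above 0, 5 of 6 around PTGDS do, with the bound for PTGDS itself drawn at -1.14, and 5 of 6 around APOD lie below 0.

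The start regions of LCN2 and PTGDS are shown because these are the members on chromosome 9, where most neighbouring genes were higher in the clone, while PTGDS had a bound below 0 and LCN2 was not measured. RefSeq windows of 250 bases before and 50 after the start were matched for 6 members, in 8 windows, and APOD and FABP5 were not analysed. LCN2 lies at chr9:128149203-128149502 and PTGDS at chr9:136977254-136977553, both on the plus strand of GRCh38.p14. Capitals mark the letters ATAAATAG, a match close to a TATA box that was noticed after the sequences were read.
LCN2: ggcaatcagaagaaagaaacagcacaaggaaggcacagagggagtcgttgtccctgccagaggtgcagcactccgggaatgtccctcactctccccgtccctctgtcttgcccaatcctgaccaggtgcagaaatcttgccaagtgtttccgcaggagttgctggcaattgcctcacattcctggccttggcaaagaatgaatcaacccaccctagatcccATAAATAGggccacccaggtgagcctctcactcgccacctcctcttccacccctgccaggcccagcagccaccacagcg
PTGDS: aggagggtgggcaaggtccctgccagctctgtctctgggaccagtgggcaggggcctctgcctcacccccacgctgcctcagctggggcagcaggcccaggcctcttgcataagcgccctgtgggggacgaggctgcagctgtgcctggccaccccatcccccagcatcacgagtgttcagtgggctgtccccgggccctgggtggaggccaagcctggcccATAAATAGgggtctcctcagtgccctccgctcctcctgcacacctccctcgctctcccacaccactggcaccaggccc
The letters begin 29 bases before the start in LCN2 and 28 in PTGDS. On either strand they occur in 1.01% of 35116 windows and in 2 of the 8 member windows. No member window held both these letters and TATAAA, which was searched in the same way. TATAAA was found in 4 of the 8, those of FABP6 and the 3 of RBP4, and in 11.5% of all windows. The observed over expected frequency of CpG was 0.255 for LCN2, 0.201 for PTGDS, 0.121 for FABP6, 0.289 for FABP7 and 0.494 for FABP3, all below the median of 0.579 over all windows. The 3 windows of RBP4 were above it, at 0.621 to 0.979. These are descriptions of sequence and say nothing of which factors act there.

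Other genes of lipid carriage and handling were compared with the members. Of 14 further lipocalins with a probe set, 13 on chromosome 9, 12 were not measured. APOM, the lipocalin of high-density lipoprotein, read 543.3 in the clone and 463.6 in the control (log2 ratio 0.23), and its second probe set gave 0.13. LCN10, an epididymal lipocalin, read 63.6 in the clone and 250.1 in the control, a bound of -0.27. Of 8 further intracellular lipid carriers 6 were not measured, among them FABP4 of adipocytes and PMP2 of Schwann cells. CRABP2, which carries retinoic acid to its receptor, read 488.9 in the clone and 360.2 in the control, a log2 ratio of 0.44. RBP7, a retinol carrier, read 319 in the clone and 82 in the control, a bound of 0.62. Neither list had a gene at least 2-fold apart, beside 3.1% of all measured genes.

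Among receptors and partners of lipocalins 6 of 13 genes were measured, with a median log2 ratio of -0.081 beside -0.022 for all measured genes. Of the 6, 0 were 2-fold apart, beside 3.1% of all measured genes. BSG, basigin, a reported receptor of APOD, read 19354 in the clone and 16014.6 in the control, a log2 ratio of 0.27. STRA6, the receptor of RBP4, read 253.6 in the clone and 359.5 in the control (-0.50). Its other probe sets stayed under the floor, at 105.1 and 10 in the clone against 70.2 and 62.9 in the control. SLC22A17, a receptor of LCN2, read 222.9 in the clone and 153.3 in the control, the latter below the floor. LMBR1L, a lipocalin-1 receptor, had a log2 ratio of -0.41 and MMP9, the protease that LCN2 binds, one of -0.15. Genes of this list at background included TTR, the partner of RBP4 in serum, LRP2, HPGDS and the prostaglandin D2 receptors PTGDR and PTGDR2. Of the enzymes that supply PTGDS with its substrate, PTGS2 was not measured. PTGS1 read 209.8 in the clone and 211.1 in the control, right at the floor, and a second probe set read 35.3 in the clone and 278.2 in the control, a bound of -0.42.

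In the list of fatty acid uptake, activation and nuclear receptors, 16 of 22 genes were measured and the median log2 ratio was 0.039. Of the 16, 0 were 2-fold apart, beside 3.1% of all measured genes. DBI, the acyl-CoA binding protein, read 19030.2 in the clone and 18756.1 in the control, a log2 ratio of 0.021. CPT1A, which commits fatty acids to mitochondrial oxidation, read 5986.2 in the clone and 4525.8 in the control (0.40), and its other probe sets ran from -0.17 to 0.41. RXRA, the shared partner of PPAR receptors, was at 0.11 on that scale, and PPARD, the receptor that FABP5 supplies, at 0.094. The lowest value was that of ACSL1, an acyl-CoA synthetase, at 338.2 in the clone and 578.5 in the control, a log2 ratio of -0.77. Its second probe set had a bound of -1.22. ACSL4 stood at -0.61 on its brightest probe set and 0.34 on the next, so its probe sets disagreed.

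Apolipoproteins and lipoprotein receptors held 9 measured genes of 17, with 2 at least 2-fold higher in the clone, 0 lower and a median log2 ratio of -0.22, beside 1.21% and 1.9% of all measured genes higher and lower. VLDLR, a receptor for APOE-containing particles and reelin, read 572.7 in the clone and 227.9 in the control, a log2 ratio of 1.33 on its single probe set. VLDLR lies on chromosome 9. APOH, a plasma glycoprotein that binds phospholipid, read 455.1 in the clone and 220.6 in the control, a log2 ratio of 1.04, and its second probe set stayed in the background. The control signals of both genes were just above the floor, and both values come from probe sets of shared sequence. Neither stayed 2-fold apart when centred on poly-A spikes, or with the floor 2 times as high, and without such probe sets neither had a value. PLTP, the phospholipid transfer protein, was at -0.34, LRP8, another reelin receptor, at -0.22, and APOE at -0.27 on its brightest probe set. The other APOE probe sets stood at -0.062 and at a bound of 0.49. CLU, clusterin, read 139.3 in the clone and 404.9 in the control, with a bound of -0.96, while its other 3 probe sets, all under the floor, read higher in the clone, at 201.8, 139.9 and 94.7 against 164.4, 50 and 21.4 in the control.

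**Figure D4:**
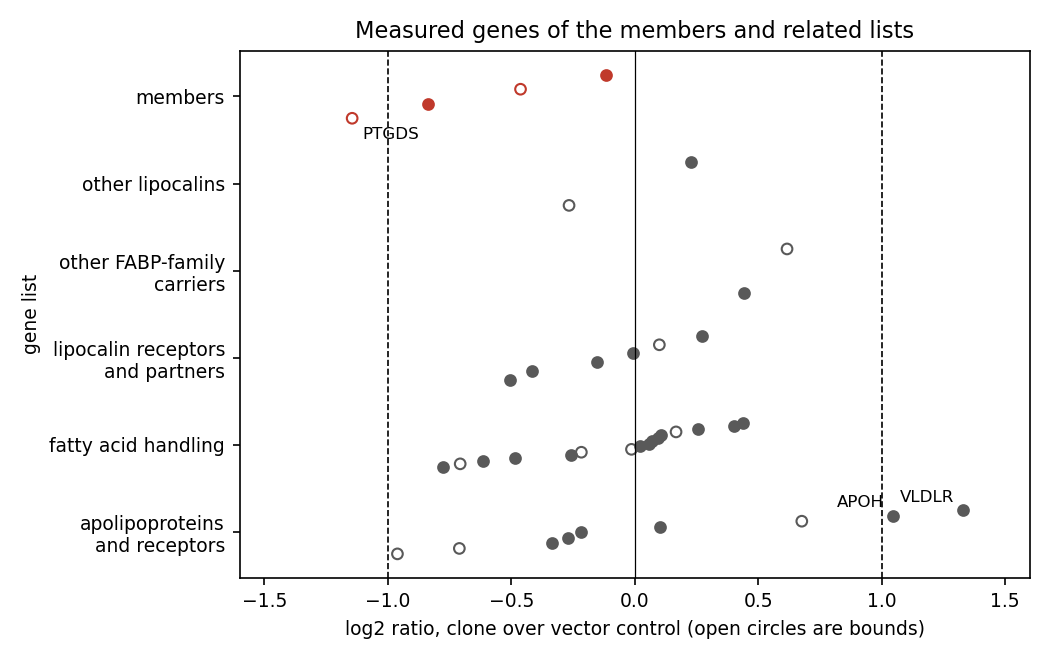
Log2 ratio of clone over vector control for the measured genes of the member list (red) and of the 5 related lists (grey), open circles where the ratio is a bound and dashed lines at 2-fold. Of the members, APOD and FABP5 are filled (FABP5 moves to 0.39 when centred on hybridisation spikes), PTGDS and FABP6 are bounds that can only fall below 0, and APOH and VLDLR are the related genes past 2-fold.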

How the data were processed

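The deposited values were linear intensity values (probe set signals) from 2 Affymetrix U133 Plus 2.0 arrays, 1 per group. The authors used GCOS 1.3, per the submitters' processing notes. How probes were summarised, the scaling target and any detection calls were not given in the sources used here. With 2% of the 54675 probe sets trimmed at each end, both arrays had a mean of 1000.12, so the authors had scaled them per array. The number of arrays limits the precision. Groups came from the sample labels.

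GEO's platform annotation of 2016 gave 1 gene for 41097 probe sets, several for 1801 and none for 11777. Symbols were updated by gene ID through RefSeq (41043 matched). The floor came from 189 background probe sets. For each gene the probe set brightest on average was used. Log2 ratios are clone over vector control, with a signal under the floor set to it; no pseudocount was used. With 1 array per group no test was run. A list needed 4 measured genes for a median. Genes LCN9 and ORM2 and several other listed genes had no single-gene probe set here and are not analysed here.

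The members and the lists were chosen with earlier results of these data known. The text names every member, the genes of each list at least 2-fold apart and the 3 brightest; further list genes are examples picked after their values were seen, and neighbours are given as ranges with examples. Alternatives were loess and quantile normalization, centring on spikes, other floors, the median of probe sets, no shared-sequence probe sets, and a pseudocount of 50. The ratio and loess steps were tested on simulated data. Changes were planted there only in genes with control signals well above those of APOD, PTGDS and FABP6. Recovery of a change near the floor was therefore not tested. Python 3.11.15, numpy 2.4.6, pandas 2.3.3, statsmodels 0.14.6 and matplotlib 3.10.9 were used.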

Additional observations from a re-analysis of the deposited data

How the results depend on the processing

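No paired analysis was possible because each group has 1 array, and no replicate could be left out. Values are clone over vector control, and the cause of each change was not tested. Of 4 measured members, 1 was at least 2-fold apart as reported. The count was 0 of 4 centred on hybridisation spikes and with the median of measured probe sets. It was 0 of 3 with the floor 2 times as high. Without shared-sequence probe sets it was 0 of 2, and PTGDS then had no value. It was 2 of 4 centred on poly-A spikes. It was 5 of 8 both with no floor and with a pseudocount of 50 in place of it, where genes in the background enter. The counts over all genes under these settings are given in the next paragraph. The log2 ratio of APOD was negative in all 10 alternatives, but several of these could not change its sign. APOD has 1 probe set, without shared sequence and with both signals above the floor. No floor, a floor at each array median, the median of probe sets and no shared-sequence probe sets therefore left it at -0.84. A pseudocount could not turn the sign either. The APOD ratio was -0.34 centred on hybridisation spikes, -1.35 on poly-A spikes, and -0.35 with the doubled floor. With that floor it is a bound that can only be negative. Those centrings moved the median of all genes to 0.46 and -0.57; relative to it, APOD was at -0.80 and -0.77. FABP5 was at 0.39 and -0.73 under them, and relative to all genes at -0.075 and -0.15. PTGDS was at -0.71 centred on hybridisation spikes and -0.14 with the doubled floor. FABP6, a bound of -0.46, was at -3.32 with no floor and -2.10 with the pseudocount; centred on poly-A spikes its bound was 0.11 above the median of all genes.

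Over all genes, the counts 2-fold higher and lower were 975 and 92 of 13304 centred on hybridisation spikes. They were 13 and 1237 of 12345 on poly-A spikes. With no floor they were 1561 and 3493 of 19775, and with the doubled floor 71 and 47 of 10105. The pseudocount gave 702 and 1705 of 19775. The median of measured probe sets gave 104 and 176 of 12701, and leaving out shared-sequence probe sets 131 and 171 of 9743. Apolipoproteins and receptors, 2 as reported, had 0 on poly-A spikes, with the doubled floor and without shared-sequence probe sets, and 8 with no floor. Lists with 0 as reported changed thus: fatty acid handling had 3 on poly-A spikes, 6 with no floor and 2 with the pseudocount; lipocalin partners 1, 3 and 1 in the same order; other lipocalins 5 with no floor and 3 with the pseudocount; other intracellular carriers 1 on hybridisation spikes, 6 with no floor and 1 with the pseudocount. Of 154 comparisons with the reported values, 111 changed little (a count within 1.5 times, a log2 value within 0.35). Some of these could not change, such as the ratio of a gene with 1 probe set when the median of probe sets was taken.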
